A study of Homo sapiens with 6 samples.

Results

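The 10 genes described here encode the proteins that carry a cell from G1 into S phase: the D-type cyclins CCND1, CCND2 and CCND3, their kinases CDK4 and CDK6, the retinoblastoma protein RB1, the transcription factor E2F1, the E-type cyclins CCNE1 and CCNE2, and their kinase CDK2. They were chosen by gene symbol, with earlier results of these data known, out of 56638 symbols listed in each count table. All 10 were listed. Of the 15242 genes with enough reads to be tested, 9 were among the 10; CCND2 was not. The measurements are RNA-seq read counts from DLD-1, an established human colorectal cancer line, grown in RPMI-1640 medium with fetal bovine serum. One set of cells was transfected with siRNA that targets the long non-coding RNA lncSLCC1, listed as RP11-400N13.2 (3 libraries), and the other with a control siRNA (3 libraries). Both groups therefore share the cell line and a transfection, and no untransfected cells were among the samples. Dose and time after transfection are not stated in the sources used here. Nor is it stated whether replicates were separate cultures, and the p-values therefore speak only of the spread between these libraries, which can be technical.

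D-type cyclins are made in response to growth signals and bind CDK4 or CDK6. The active kinases phosphorylate RB1, which then releases E2F factors such as E2F1, and these switch on genes for DNA replication, among them the E-type cyclins. Cyclin E with CDK2 phosphorylates RB1 further and helps start replication. In colorectal cancer this step is known as a point where Wnt, MAPK and MYC signalling meet, since CCND1 and CDK4 are among the genes these pathways act on.

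Gene reads numbered 12572277 to 15262872 in the lncSLCC1 siRNA libraries and 14873343 to 15568075 in the control siRNA libraries. The targeted RNA measured 1.66, 2.62 and 2.10 CPM (reads of a gene scaled to a fixed library size, here with TMM factors) in the 3 lncSLCC1 siRNA libraries, in replicate order, against 5.197, 9.31 and 9.04 CPM in the control libraries, and its groups did not overlap. Of 11 colorectal epithelial markers, 9 averaged at least 1 CPM over all libraries, CDX2, LGR5 and KRT20 among them, whereas CEACAM5 and CDX1 stayed under 1 CPM in every library. The 5 leukocyte markers summed to 0.0779 to 0.192 CPM in lncSLCC1 siRNA libraries and 0 to 0.325 CPM in control libraries. The 6 fibroblast markers summed to 3.12 to 3.27 CPM in lncSLCC1 siRNA libraries, against 2.28 to 2.80 CPM in control libraries, with DCN at 0 in every library, and the 4 endothelial markers to 1.40 to 1.98 and 1.24 to 2.07 CPM, with PECAM1 and KDR at 0 in every library. The highest fibroblast markers were COL1A1, at 1.496 to 2.207 CPM over all libraries, and PDGFRB, at 0.4271 to 1.558 CPM. The highest endothelial marker was VWF, at 1.171 to 2.065 CPM over all libraries. Any part of the leukocyte, fibroblast and endothelial marker transcripts in the results was not tested. The control libraries differed among themselves. Control replicate 1 lay 0.137 below its group's mean on the log2 scale in the median transcript of at least 6000 bases and 0.181 above it in the median transcript under 1500 bases, and control replicate 3 lay 0.151 above and 0.158 below. In the lncSLCC1 siRNA libraries the same medians ran from -0.031 to 0.031.

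Of the 9 tested genes, 6 were lower after lncSLCC1 siRNA and 0 were higher by edgeR's quasi-likelihood test with a Benjamini-Hochberg adjusted p under 0.05, the same counts as by DESeq2 and limma-voom (7 lower and 0 higher at an unadjusted p under 0.05 by edgeR). Of all tested genes 7.39% were lower and 6.46% higher, or 13.8% in either direction, and 16.3% and 15.3% at the unadjusted threshold. CCND3, CDK4 and CDK2 stood at 46.5% to 51.4% of the control level, CCND1 at 60.01%, and E2F1 and CCNE1 at 75.2% and 75.7%. CDK6, CCNE2 and RB1 did not pass the test. The same 6 genes had lncSLCC1 siRNA libraries that all lay below all control libraries, which held for 19.6% of tested genes (39.0% in either direction). The median log2 fold change of the 9 genes was -0.41, beside 0.01 over all tested genes. The members and the pathway lists below were chosen with earlier results of these data known. Their counts and medians are therefore descriptions, not independent tests. In bulk libraries such as these, fewer cells that hold a transcript and less of it in each cell cannot be told apart.

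**Figure D1:**
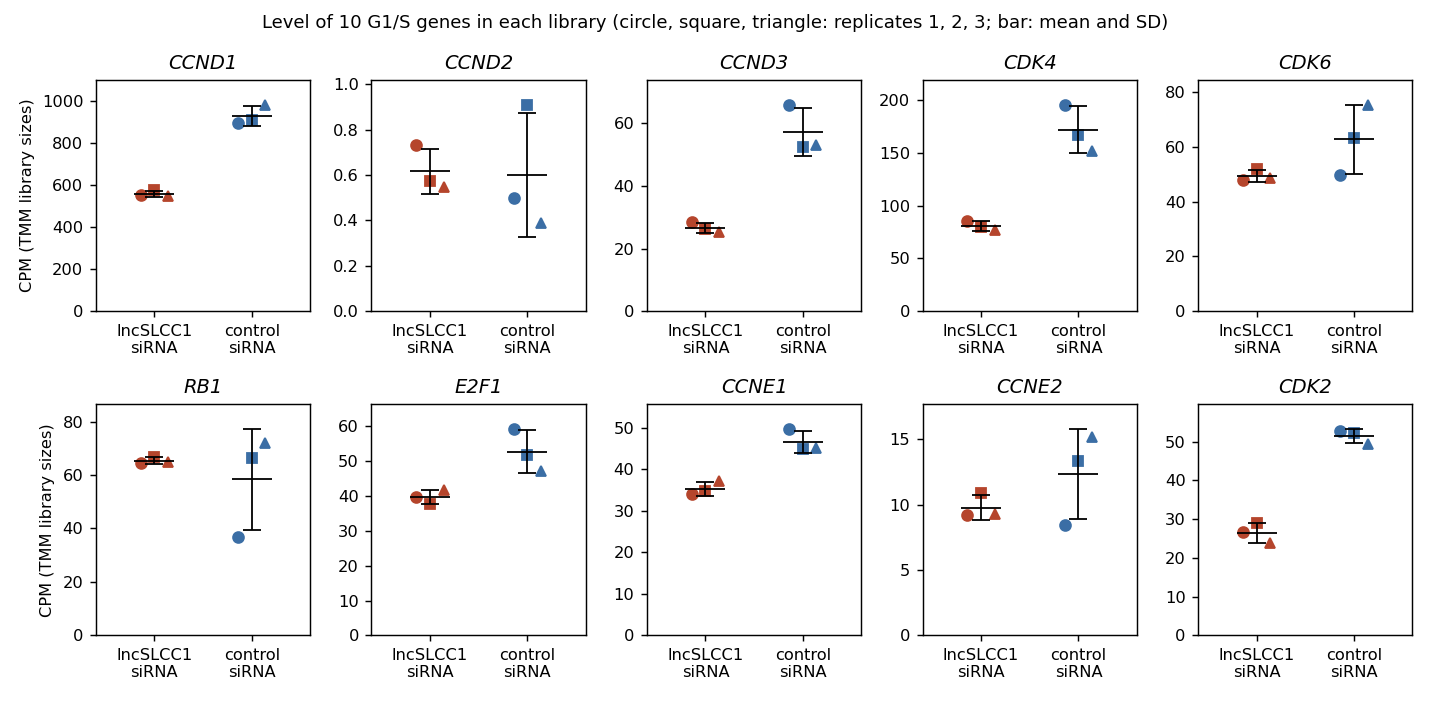
Level of each of the 10 genes in CPM with TMM library sizes (vertical axes from 0, one scale a gene), with lncSLCC1 siRNA libraries on the left and control siRNA libraries on the right of each panel. Points are libraries, and bars give the mean and SD of 3. CCND1, CCND3, CDK4, CDK2, E2F1 and CCNE1 separate the groups, whereas control replicate 1 (circle) lies low in RB1, CDK6 and CCNE2.

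CCND1, the D-type cyclin best known for its response to Wnt and MAPK signals, was the most abundant of the 10. It measured 549, 574 and 547 CPM in lncSLCC1 siRNA replicates 1, 2 and 3, against 894, 907 and 982 CPM in control replicates 1, 2 and 3. All lncSLCC1 siRNA libraries were low and lay close together. The mean was 557 ± 15.1 CPM after lncSLCC1 siRNA and 928 ± 47.5 CPM after control siRNA (SD, n = 3 each), a log2 fold change of -0.74 (SE 0.074, 95% interval -0.90 to -0.57; edgeR adjusted p = 0.000457). These values rest on 7016 to 8990 reads in lncSLCC1 siRNA libraries and 12557 to 15092 reads in control libraries, the deepest counts of the 10 genes. In GENCODE release 29, 10.3% of its exonic bases lie in exons of ORAOV1 on the opposite strand, which averaged 34.3 ± 3.69 CPM after lncSLCC1 siRNA and 44.0 ± 3.70 CPM after control siRNA (SD, n = 3 each).

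CCND3, another D-type cyclin that binds the same kinases, was far less abundant. Its fold change was larger than that of CCND1, a difference that was not tested. Its level was 28.4, 26.2 and 25.3 CPM in lncSLCC1 siRNA replicates 1, 2 and 3, against 66.1, 52.4 and 53.2 CPM in control replicates 1, 2 and 3. The groups were far apart, and control replicate 1 was the highest library. The log2 fold change was -1.10 (SE 0.116, 95% interval -1.36 to -0.84; edgeR adjusted p = 0.000547), which left 46.5% of the control level. CCND2 was nearly silent, with 11, 9 and 7 reads in lncSLCC1 siRNA replicates 1, 2 and 3, against 7, 14 and 6 reads in control replicates 1, 2 and 3. Its pooled level was 0.62 CPM after lncSLCC1 siRNA (95% Poisson interval 0.409 to 0.902) and 0.603 CPM after control siRNA (0.397 to 0.877), intervals that cover counting error only. A difference between groups was not detectable at this depth.

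CCND1 supplied most D-type cyclin reads in every library. Its share of CCND1, CCND2 and CCND3 reads was 94.97%, 95.55% and 95.48% in lncSLCC1 siRNA replicates 1, 2 and 3, against 93.07%, 94.45% and 94.83% in control replicates 1, 2 and 3. All 3 lncSLCC1 siRNA shares lay above all control shares, by a narrow margin. The mean shares differed by 1.22 percentage points (exact two-sided permutation p = 0.1, the smallest that 3 against 3 libraries allow; adjusted p = 0.15 over 3 ratios). Without control replicate 1 the difference was 0.69 percentage points (exact permutation p = 0.2). Per base of transcript the share was 92.0% ± 0.51 after lncSLCC1 siRNA and 89.96% ± 1.52 after control siRNA (SD, n = 3 each).

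CDK4, the catalytic partner of the D-type cyclins, fell to 47.0% of the control level. It measured 85.8, 79.9 and 76.8 CPM in lncSLCC1 siRNA replicates 1, 2 and 3, against 196, 168 and 152 CPM in control replicates 1, 2 and 3. The lowest control library was well above the highest lncSLCC1 siRNA library. The log2 fold change was -1.09 (SE 0.104, 95% interval -1.32 to -0.86; edgeR adjusted p = 0.000364). In GENCODE release 29, 43.2% of the exonic bases of CDK4 lie in exons of TSPAN31, a tetraspanin gene on the opposite strand, and without a stated strand setting reads of the pair cannot be told apart there. TSPAN31 itself was listed at 5.82 ± 0.791 CPM after lncSLCC1 siRNA and 5.72 ± 1.46 CPM after control siRNA (SD, n = 3 each; a log2 change of 0.03 with SE 0.199, edgeR adjusted p = 0.926).

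The promoter of CDK4 is shown because it carries the E-box CACGTG, the site that MYC with its partner MAX is known to bind, and CDK4 is a known MYC target. The 250 bases before the annotated start (RefSeq, GRCh38.p14, chr12:57752311-57752560, minus strand, 5′ to 3′, E-boxes in capitals) are:
CDK4: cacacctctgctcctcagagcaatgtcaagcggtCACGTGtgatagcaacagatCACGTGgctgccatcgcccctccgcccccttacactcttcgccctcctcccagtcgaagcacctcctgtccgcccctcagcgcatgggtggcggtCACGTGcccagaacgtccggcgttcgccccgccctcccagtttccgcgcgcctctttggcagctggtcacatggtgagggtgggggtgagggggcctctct
E-boxes begin 216, 196 and 101 bases before the start. The letters CACGTG, which read the same on both strands, occurred at least once in 6.34% of 35116 RefSeq windows of this length and at least 3 times in 0.0797%. The CDK4 window is shown for its E-boxes, so these shares describe how common the letters are and are not a test. CCND3, CDK6, CCNE1 and E2F1, which also have RefSeq promoter entries, had 0 of them in the 250 bases before each start listed. The RB1 entry lies 172699 bases inside the gene, at an inner transcript start, and was not used. Inner starts are also among those scanned. The starts of CCND3 lie 1347, 108227 and 110830 bases from the gene's 5′ end, and a start of CDK6 lies 2614 bases from it. The promoters of CCND1, CCND2, CDK2 and CCNE2 were not scanned. MYC stood at 162 ± 7.78 CPM after lncSLCC1 siRNA and 241 ± 18.7 CPM after control siRNA (SD, n = 3 each), a log2 fold change of -0.58 (SE 0.084, adjusted p = 0.00306 by edgeR). Such a match describes the sequence and was not tested as a site.

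CDK6, the other kinase partner of the D-type cyclins, measured 47.8, 52.0 and 48.5 CPM in lncSLCC1 siRNA replicates 1, 2 and 3, against 49.7, 63.3 and 75.2 CPM in control replicates 1, 2 and 3. Control replicate 1 fell among the lncSLCC1 siRNA values, so the groups overlapped. CDK6 did not pass the test, at a log2 fold change of -0.34 with an SE of 0.138 and a 95% confidence interval of -0.65 to -0.04 (adjusted p = 0.121 by edgeR). It was -0.49 without control replicate 1 (adjusted p = 4.31e-05 by edgeR) and -0.56 with offsets for GC content and transcript length (adjusted p = 5.33e-05 by edgeR), both past the threshold, but -0.20 without control replicate 3 (adjusted p = 0.234 by edgeR).

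The balance of CDK4 to CDK6 does not depend on how libraries are scaled. It does set a transcript of 2076 bases and 53.6% GC against one of 11612 bases and 39.5% GC. Control libraries differed along such features. With GC content and length offsets the log2 fold changes were -1.04 for CDK4 and -0.56 for CDK6. There were 1.79, 1.53 and 1.58 CDK4 reads per CDK6 read in lncSLCC1 siRNA replicates 1, 2 and 3, against 3.95, 2.65 and 2.02 in control replicates 1, 2 and 3. Every lncSLCC1 siRNA library was below every control library, and the control libraries were widely spread. The difference was -0.76 on the log2 scale (exact two-sided permutation p = 0.1, the smallest that 3 against 3 libraries allow; adjusted p = 0.15 over 3 ratios), and without control replicate 1 it was -0.50.

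CDK2, the kinase driven by E-type cyclins, fell to 51.4% of the control level. It measured 26.6, 28.9 and 23.8 CPM in lncSLCC1 siRNA replicates 1, 2 and 3, against 52.8, 52.3 and 49.3 CPM in control replicates 1, 2 and 3. Unlike the other members that fell, its control libraries were tighter than its lncSLCC1 siRNA libraries, at coefficients of variation of 9.78% after lncSLCC1 siRNA and 3.61% after control siRNA. Its log2 fold change of -0.96 had an SE of 0.102 and a 95% confidence interval of -1.19 to -0.73 (adjusted p = 0.000587 by edgeR). On the opposite strand, AC025162.1 overlaps 14.5% of its exonic bases in GENCODE release 29 and has no value here under that symbol, and PMEL, which overlaps 2.29%, averaged 3.59 ± 0.414 CPM after lncSLCC1 siRNA and 3.32 ± 1.11 CPM after control siRNA (SD, n = 3 each).

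E-type cyclins had smaller fold changes than CDK2, a difference that was not tested. CCNE1 measured 33.9, 34.8 and 37.1 CPM in lncSLCC1 siRNA replicates 1, 2 and 3, against 49.7, 44.9 and 45.2 CPM in control replicates 1, 2 and 3. Its groups did not overlap, and it fell by 0.40 on the log2 scale (SE 0.093, 95% interval -0.61 to -0.19; edgeR adjusted p = 0.0219). The call was lost without lncSLCC1 siRNA replicate 1, 2 or 3 (adjusted p = 0.117, 0.119 and 0.0815 by edgeR) and without control replicate 2 (0.0718), at log2 fold changes of -0.38, -0.39, -0.44 and -0.43.

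CCNE2, the second E-type cyclin, measured 9.17, 10.9 and 9.27 CPM in lncSLCC1 siRNA replicates 1, 2 and 3, against 8.47, 13.3 and 15.2 CPM in control replicates 1, 2 and 3. Control replicate 1 was the lowest of all 6 libraries. CCNE2 did not pass the test, at a log2 fold change of -0.34 with an SE of 0.199 and a 95% confidence interval of -0.78 to 0.11 (adjusted p = 0.273 by edgeR). Without control replicate 1 it was -0.54 (adjusted p = 0.00212 by edgeR), and with GC content and length offsets -0.47 (adjusted p = 0.0118 by edgeR), but without control replicate 3 it was -0.17 (adjusted p = 0.555 by edgeR). In GENCODE release 29, 37.05% of its exonic bases overlap INTS8, a gene on the opposite strand, which stood at 59.3 ± 2.59 CPM after lncSLCC1 siRNA and 53.8 ± 11.8 CPM after control siRNA (SD, n = 3 each). CCNE1 made up 78.3% ± 1.92 of E-type cyclin reads after lncSLCC1 siRNA and 79.1% ± 5.57 after control siRNA (SD, n = 3 each), a difference of -0.81 percentage points that lay well inside the SD of the control libraries (exact two-sided permutation p = 0.9; adjusted p = 0.9 over 3 ratios). Without control replicate 1 that difference was 2.34, and without lncSLCC1 siRNA replicate 2 it was 0.24, both of the opposite sign.

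E2F1, the factor that RB1 restrains, measured 39.9, 37.7 and 41.6 CPM in lncSLCC1 siRNA replicates 1, 2 and 3, against 59.3, 51.9 and 47.2 CPM in control replicates 1, 2 and 3. The groups did not overlap, and E2F1 fell by 0.41 on the log2 scale (SE 0.106, 95% interval -0.65 to -0.17; edgeR adjusted p = 0.0333). This call too was lost without lncSLCC1 siRNA replicate 1, 2 or 3 (adjusted p = 0.1215, 0.1585 and 0.106 by edgeR) and without control replicate 2 (0.104), at log2 fold changes of -0.41, -0.38, -0.45 and -0.42.

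E2F1 is known to act on its own promoter, so that promoter is shown with the E2F consensus TTTNNCGC, each N being C or G, in capitals on either strand. The 250 bases before the annotated start (RefSeq, GRCh38.p14, chr20:33686386-33686635, minus strand, 5′ to 3′) are:
E2F1: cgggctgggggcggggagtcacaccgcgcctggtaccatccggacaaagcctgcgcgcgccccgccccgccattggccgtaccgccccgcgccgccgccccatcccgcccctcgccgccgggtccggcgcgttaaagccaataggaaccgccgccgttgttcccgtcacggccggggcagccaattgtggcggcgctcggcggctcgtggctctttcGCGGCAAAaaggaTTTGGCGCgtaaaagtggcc
A match on the reverse strand begins 33 bases before the start and one on the forward strand 20 bases before it, and they do not overlap. Of the 35116 RefSeq windows of this length, 2.79% held the consensus at least once and 0.122% at least 2 times. The windows of CCND3, CDK4, CDK6 and CCNE1 had 0 matches, like most RefSeq windows, and some of those of CCND3 and CDK6 lie at inner starts. Sites with other letters or after the start were not sought. CCND1, CCND2, CDK2 and CCNE2 were not scanned here either.

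RB1, the pocket protein that D- and E-type cyclin kinases phosphorylate, had the widest spread between control libraries of the 9 tested genes, at coefficients of variation of 1.90% after lncSLCC1 siRNA and 32.3% after control siRNA. It measured 64.5, 66.8 and 64.8 CPM in lncSLCC1 siRNA replicates 1, 2 and 3, against 36.9, 66.4 and 72.0 CPM in control replicates 1, 2 and 3. The lncSLCC1 siRNA libraries lay between control replicate 1 and control replicate 3. RB1 did not pass the test, at a log2 fold change of 0.16 with an SE of 0.200 and a 95% confidence interval of -0.29 to 0.61 (adjusted p = 0.616 by edgeR). It turned to -0.08 without control replicate 1 (adjusted p = 0.374 by edgeR) and was 0.015 with GC content and length offsets (adjusted p = 0.904 by edgeR).

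**Figure D2:**
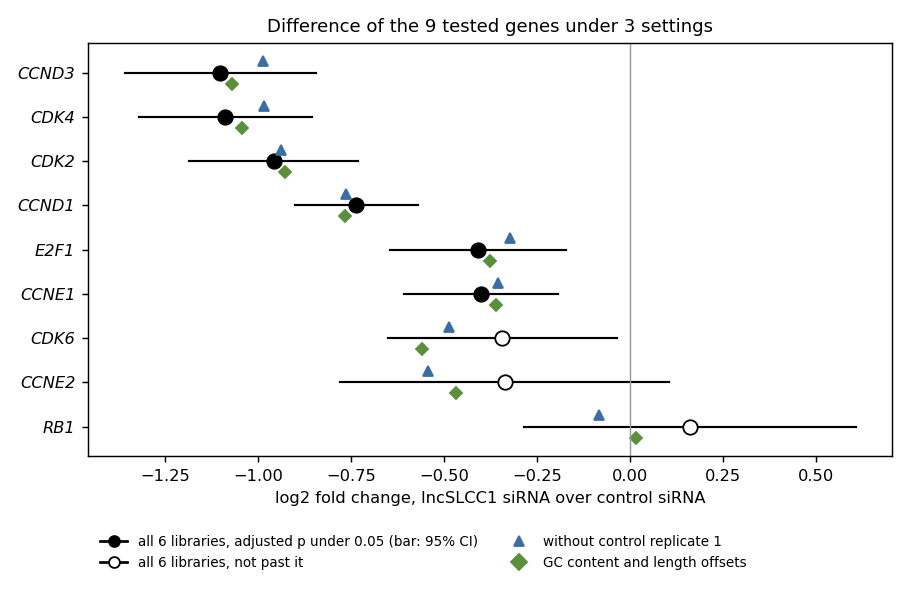
Log2 fold change of lncSLCC1 siRNA over control siRNA for the 9 tested genes (horizontal axis), with all 6 libraries (circles, filled where the adjusted p was under 0.05, bars giving the 95% confidence interval), without control replicate 1 (triangles) and with GC content and length offsets (diamonds). CCND3, CDK4, CDK2 and CCND1 stay at -0.737 or further left in all 3 settings, whereas RB1 lies between -0.083 and 0.161.

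The way control replicates departed from each other went with the transcripts' length and base composition among the members. The 5 members whose longest transcript has at most 2503 bases (CCNE1, CDK4, CDK2, CCND3 and E2F1) were all higher in control replicate 1 than in the mean of control replicates 2 and 3, by 0.06 to 0.32 on the log2 scale. The 4 longer ones were all lower there, by 0.08 for CCND1, 0.47 for CDK6, 0.74 for CCNE2 and 0.90 for RB1. CDK6, RB1 and CCNE2 are also the members with the lowest GC content, 39.5%, 37.3% and 36.9%, against 48.4% to 62.5% in the others. In the lncSLCC1 siRNA libraries no tested member strayed from its group's mean by more than 0.16. CDK6, CCNE2 and RB1, which lay furthest below the other controls in control replicate 1, are the 3 that did not pass the test. Without control replicate 3 they did not pass either (adjusted p = 0.234, 0.555 and 0.224 by edgeR). The count then stayed at 6 lower and 0 higher, of 10 tested members, where 3702 of 15628 tested genes were called (2088 lower). Which control library departs from the others was not tested. With GC content and length offsets, 8 of the 9 tested members were lower and 0 were higher. Of all 15242 tested genes, 31.2% were then called in either direction and 2939 were lower. Without control replicate 1 the counts were likewise 8 and 0, of 10 tested members, against 4543 of 15646 tested genes called (2431 lower). CCND3, CDK4, CDK2 and CCND1 had log2 fold changes of -0.99, -0.98, -0.94 and -0.76 without that library.

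**Figure D3:**
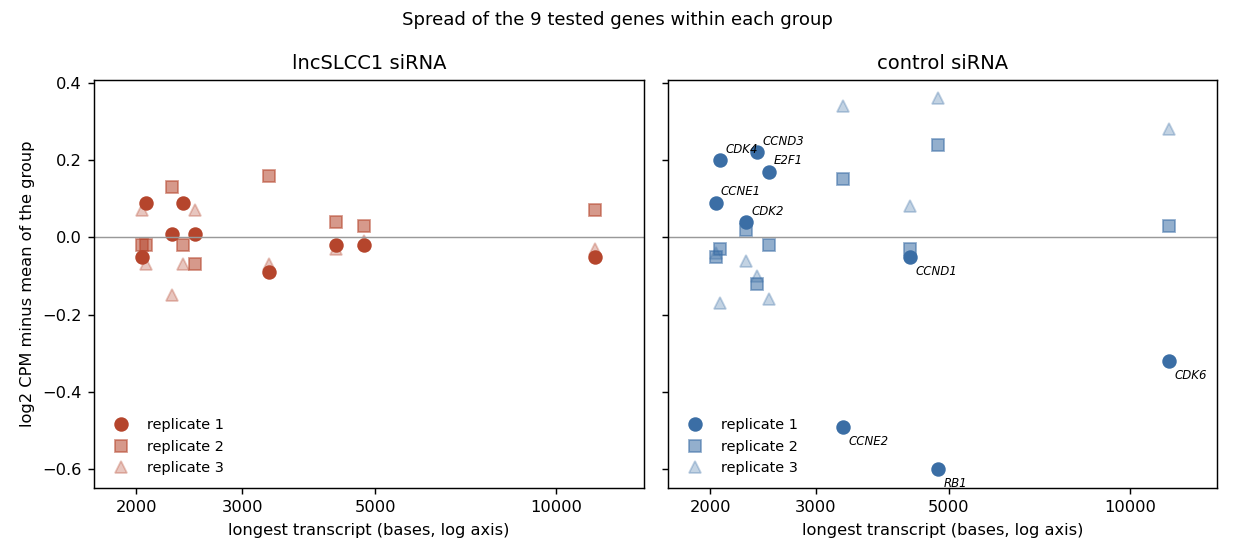
Log2 CPM of each tested gene minus the mean of its group (vertical axis) against the length of its longest annotated transcript in bases (horizontal, log axis), for lncSLCC1 siRNA libraries (left) and control siRNA libraries (right). Points are libraries, and names mark control replicate 1, which lies above 0 for the 5 shortest transcripts and at -0.32 to -0.60 for CDK6, CCNE2 and RB1.

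Levels were compared between genes per kilobase of the longest transcript in GENCODE release 29 (RPKM, with TMM library sizes). Of the exonic bases, 43.2% in CDK4 and 37.05% in CCNE2 are shared with a gene on the opposite strand. Reads there can be counted as ambiguous, and what this does to the order of genes was not tested. CCND1 led at 129 ± 3.50 RPKM after lncSLCC1 siRNA and 215 ± 11.02 RPKM after control siRNA (SD, n = 3 each), followed by CDK4 at 38.9 ± 2.19 and 82.8 ± 10.8 RPKM. Below them, CCND3, CCNE1, CDK2 and E2F1 had overlapping neighbours in control libraries, at means of 21.1 to 23.9 RPKM, and RB1 followed at 12.2 ± 3.93 RPKM. After lncSLCC1 siRNA the same 5 genes stood in another order: CCNE1 at 17.3 ± 0.796 and E2F1 at 15.9 ± 0.774 RPKM touched in range, RB1 came next at 13.6 ± 0.259 RPKM, and CDK2 at 11.5 ± 1.13 and CCND3 at 11.1 ± 0.655 RPKM overlapped. RB1 thus stood above CDK2 and CCND3 in every lncSLCC1 siRNA library and below both in every control library. CDK6 had 4.26 ± 0.196 RPKM after lncSLCC1 siRNA and 5.403 ± 1.10 RPKM after control siRNA, CCNE2 2.93 ± 0.284 and 3.70 ± 1.04 RPKM, and CCND2 0.0952 ± 0.0154 and 0.0926 ± 0.0424 RPKM.

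**Figure D4:**
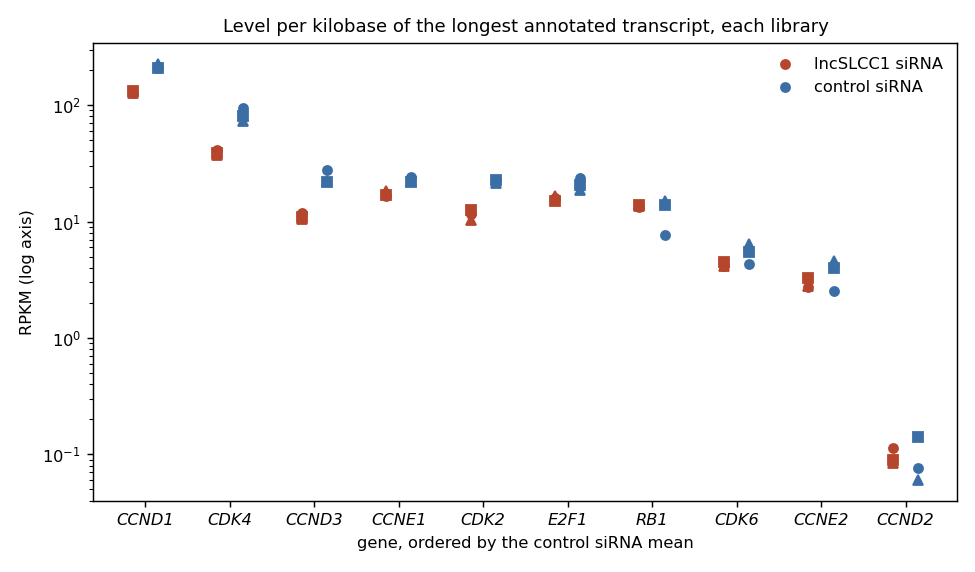
RPKM of the 10 genes (vertical, log axis) in each library, lncSLCC1 siRNA left of control siRNA at each gene, with genes ordered by the control siRNA mean. CCND1 and CDK4 head both groups, and RB1 changes place with CDK2 and CCND3.

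Inhibitors of the cyclin-dependent kinases gave 2 calls, both lower. Of 7 listed, 6 were tested, 2 were lower and 0 higher by edgeR, DESeq2 and limma-voom alike (33.3% called by edgeR, beside 13.8% of all tested genes; median log2 fold change -0.34, all tested genes 0.01). At an unadjusted p under 0.05 the counts were 2 and 0, beside 16.3% lower and 15.3% higher of all tested genes. CDKN1A, the p21 gene that p53 is known to induce, fell to 10.9 ± 0.664 CPM in lncSLCC1 siRNA libraries, against 18.6 ± 2.28 CPM in control libraries (SD, n = 3 each; a log2 change of -0.78 with SE 0.128, edgeR adjusted p = 0.00549). CDKN1C, the p57 gene, fell by 0.45 on the log2 scale (SE 0.119, adjusted p = 0.0353 by edgeR), and 4 of the 6 settings that leave out 1 library, and the replicate block, ended that call (adjusted p up to 0.144). CDKN2B and CDKN2D, inhibitors of CDK4 and CDK6, had log2 fold changes of -0.31 and -0.36 that did not pass (adjusted p = 0.174 and 0.216 by edgeR). CDKN2A, which encodes p16, was not tested, at 0.117 ± 0.0457 CPM after lncSLCC1 siRNA and 0.16 ± 0.113 CPM after control siRNA (SD, n = 3 each).

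Among the other pocket proteins and the E2F and DP factors, 3 of 11 tested genes were lower and 1 was higher (36.4% called, beside 13.8% of all tested genes; median log2 fold change -0.29). RBL2, the p130 pocket protein of resting cells, was the riser, at 52.3 ± 1.57 CPM after lncSLCC1 siRNA and 35.8 ± 2.65 CPM after control siRNA (SD, n = 3 each; a log2 change of 0.55 with SE 0.094, edgeR adjusted p = 0.00669); its call was lost without lncSLCC1 siRNA replicate 2 or 3 (adjusted p up to 0.0574). E2F4, the repressive E2F that pairs with pocket proteins, fell by 0.56 (SE 0.089), E2F6 by 0.42 (SE 0.116) and the activator E2F3 by 0.38 (SE 0.086) on the log2 scale, at edgeR adjusted p-values of 0.00467, 0.039 and 0.0207. Of these 3, E2F4 kept its call under every alternative set out for it.

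Of 23 E2F target genes of the G1/S step, all tested, edgeR called 8 lower and 0 higher, DESeq2 10 and 0, and limma-voom 7 and 0 (34.8% called by edgeR, beside 13.8% of all tested genes; median log2 fold change -0.23). At an unadjusted p under 0.05, 15 were lower and 0 higher, beside 16.3% and 15.3% of all tested genes. CDC45 fell by 0.62 (SE 0.103), CDT1 by 0.59 (SE 0.105), UHRF1, which maintains DNA methylation through replication, by 0.48 (SE 0.076) and the histone methyltransferase gene EZH2 by 0.36 (SE 0.085) on the log2 scale. CDC45 and CDT1 serve the firing and licensing of origins. Their adjusted p-values by edgeR were 0.00557, 0.00766, 0.0047 and 0.0228. Like the calls over all genes, this count moved with the libraries left out. Leaving out control replicate 1 gave 18 lower, where 2431 of all tested genes were lower (4543 called in either direction). Leaving out control replicate 3 gave 12, where 2088 were (3702 in either direction). GC content and length offsets gave 20, where 2939 were (31.2% called in either direction). Without lncSLCC1 siRNA replicates 1, 2 and 3 and control replicate 2 there were 3, 2, 2 and 3. In these fits 3.79%, 3.03%, 2.93% and 3.95% of all tested genes were called in either direction. The number higher was 0 in each of these 7 settings.

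Genes of cyclin turnover and CDK activation numbered 1 lower and 1 higher of 16 tested (12.5% called, near the 13.8% of all tested genes). CKS1B, which helps the ubiquitin ligase SKP2 recognise p27, fell to 46.2 ± 1.93 CPM in lncSLCC1 siRNA libraries, against 73.6 ± 12.4 CPM in control libraries (SD, n = 3 each; a log2 change of -0.67 with SE 0.121, edgeR adjusted p = 0.00785). GSK3B, a kinase that marks cyclin D1 for export and degradation, rose by 0.37 (SE 0.102, adjusted p = 0.0391 by edgeR). Its log2 fold change was 0.22 with GC content and length offsets, and its call was lost without control replicate 2 or lncSLCC1 siRNA replicate 1, 2 or 3 (adjusted p = 0.123 to 0.151). SKP2 and FBXO4 had log2 fold changes of -0.26 and 0.43 that did not pass (adjusted p = 0.0679 and 0.0697 by edgeR).

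Among 20 transcription factors known to act on CCND1, 5 were lower and 3 were higher (40.0% called, beside 13.8% of all tested genes; median log2 fold change -0.17). EGR1, an immediate early factor, stood at 63.1 ± 5.37 CPM after lncSLCC1 siRNA and 153 ± 15.03 CPM after control siRNA (SD, n = 3 each; a log2 change of -1.28 with SE 0.102, edgeR adjusted p = 0.000197). The AP-1 genes JUN and JUNB fell by 0.84 (SE 0.118) and 0.60 (SE 0.116) on the log2 scale, at edgeR adjusted p-values of 0.0027 and 0.0108, and MYC fell as given above. LEF1, a Wnt effector, was the fifth, at -0.34. The 3 risers were STAT5A, STAT5B and STAT3, which carry cytokine signals, at log2 fold changes of 0.56, 0.40 and 0.31. LEF1 and these 3 were picked out after their values were seen.

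The rest of the cyclin and kinase families was called about as often as all tested genes, at 13.8%. Of 16 other cyclins tested, 1 was lower and 2 were higher (18.8% called; median log2 fold change -0.12). The mitotic cyclin CCNB1 fell by 0.37 (SE 0.076, adjusted p = 0.014 by edgeR), and CCNG2, a cyclin of arrested cells, and CCNI rose by 0.73 (SE 0.174) and 0.33 (SE 0.093), at edgeR adjusted p-values of 0.0242 and 0.0448; CCNF, at -0.28, did not pass (adjusted p = 0.058). Of 15 other cyclin-dependent kinases tested, edgeR called 0 lower and 2 higher (13.3% called, median log2 fold change 0.04). DESeq2 called 1 lower and limma-voom 0 lower. At an unadjusted p under 0.05 by edgeR, 2 were lower and 4 higher (13.3% and 26.7%), beside 16.3% and 15.3% of all tested genes. CDK18 rose to 4.97 ± 0.107 CPM in lncSLCC1 siRNA libraries, against 1.64 ± 0.414 CPM in control libraries (SD, n = 3 each; a log2 change of 1.598 with SE 0.202, edgeR adjusted p = 0.00155), and CDK8, a kinase of the Mediator complex, rose by 0.40 (SE 0.116, adjusted p = 0.0472 by edgeR). CDK9 and CDK10 did not pass, at log2 fold changes of 0.29 and -0.30 (adjusted p = 0.0837 and 0.0588 by edgeR). Whether CDK4 and CDK2 differ in their fall from these families was not tested.

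Of the 29 genes called in these lists, 8 kept their call under all 14 alternatives set out for them: CDKN1A, E2F4, CDC45, UHRF1, JUN, EGR1, MYC and CDK18. The other 21 lost it without at least 1 library.

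**Figure D5:**
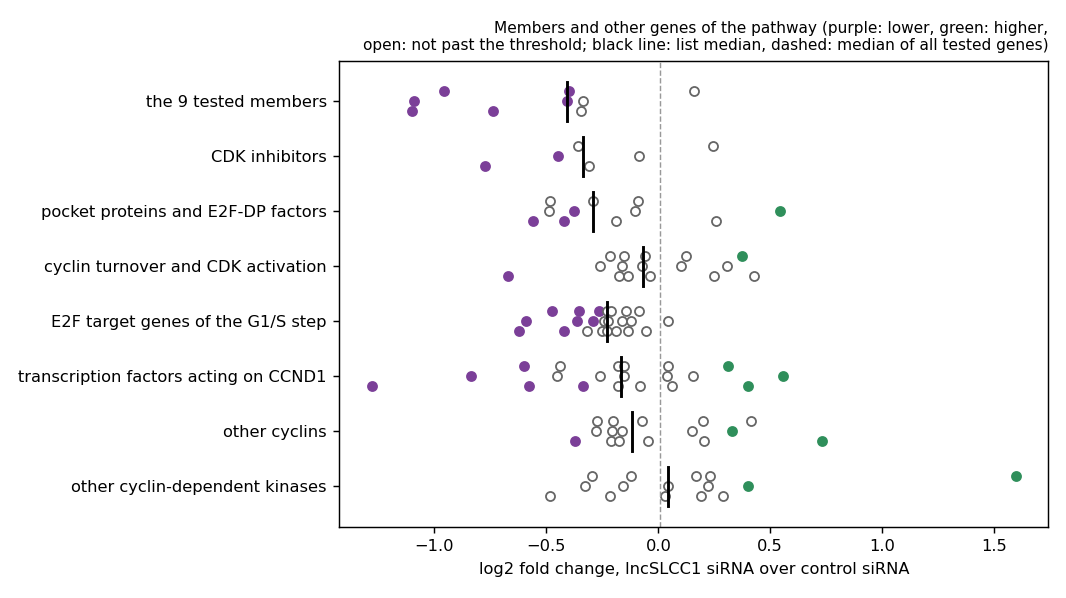
Log2 fold change of lncSLCC1 siRNA over control siRNA (horizontal axis) for each tested gene of the members and of the other lists of the pathway. Points are genes, purple where lower and green where higher by adjusted p under 0.05, open otherwise; black lines are list medians, -0.41 for the members, and the dashed line is the median of all tested genes at 0.01.

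Genes whose profile over the 6 libraries lay nearest to those of CDK4 and CCND1 were sought among 9341 genes of at least 10 CPM, by the root mean square difference of centred log2 CPM. Nearest to CDK4 were POLD2, a subunit of DNA polymerase delta, at 0.0307, then CCND3 at 0.0478 and CENPV at 0.053. POLD2 had 150, 139.5 and 142 CPM in lncSLCC1 siRNA replicates 1, 2 and 3, against 342, 295 and 267 CPM in control replicates 1, 2 and 3. The order of control libraries was that of CDK4. The median transcript under 1500 bases had this order too. Its deviations from the group's mean were 0.181, -0.003 and -0.158 on the log2 scale in control replicates 1, 2 and 3. Nearest to CCND1 were the nuclear pore gene NUP50 at 0.0341, BRI3BP at 0.045 and WASF2, an actin regulator, at 0.0474. NUP50 had 163, 169 and 169 CPM in lncSLCC1 siRNA libraries, against 260, 282 and 295 CPM in control libraries. The longest transcripts of POLD2, CCND3 and CENPV have 2158, 2394 and 1165 bases, beside 2076 in CDK4. Those of NUP50, BRI3BP and WASF2 have 5233, 6648 and 5676 bases, beside 4307 in CCND1. How far the likeness of these profiles goes with transcript length was not tested.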

How the data were processed

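Raw read counts per gene symbol, as deposited by the authors, 1 table a library, were used for 3 lncSLCC1 siRNA and 3 control siRNA libraries grouped by their labels. TopHat2 2.0.11, HTSeq and builds hg19 and GRCh37 are named in the submitters' processing notes. The strand setting, annotation release and library selection are not stated in the sources used here. HTSeq's summary lines (5.42% to 7.58% of counted alignments without a feature, 8.83% to 10.1% ambiguous, 12.8% to 13.8% not unique) were left out. All genes passing edgeR's default filter were fitted together (edgeR 4.0.16, R 4.3.3, quasi-likelihood test, TMM, no covariate), with Benjamini-Hochberg adjustment over all 15242. The common dispersion corresponds to a variation of 10.9% between libraries of a group, pooled over both groups, although control libraries differed more than lncSLCC1 siRNA libraries. Lengths and GC content came from the longest transcript in GENCODE release 29 (89.5% of tested genes), a different build, so only promoter windows carry coordinates. Alternatives tried were the DESeq2 1.42.0 test and its size factors, totals in place of TMM, other filters, limma-voom (limma 3.58.1), a replicate block, offsets for GC content and length, and leaving out each library. The fits were tested on simulated counts with the same dispersion in both groups. That test therefore does not speak to the wider spread of the real control libraries. No pair of libraries of a group agreed within sampling noise (chi-square per gene 1.86 to 30.6). Named were the 10 members, up to 4 genes of smallest p from each list, the targeted RNA and 3 nearest profiles each for CDK4 and CCND1; genes that complete a count of 5 or fewer were named after their values were seen. The members and lists were chosen with earlier results of these data known.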

Additional observations from a re-analysis of the deposited data

How the results depend on the processing

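CCND1, CCND3, CDK4 and CDK2 kept their direction and their call under all 14 alternatives set out at the start, as did RP11-400N13.2; adjusted p-values reached at most 0.00966 for these 4 members. The number of members called was 6 of 9, always lower, and ran from 4 to 8 over the alternatives, with 9 or 10 tested. It was 6 of 9 with the replicate block, 7 of 10 with no low-count filter and 8 of 9 with GC content and length offsets. Of all tested genes, 13.5%, 10.9% (of 30025) and 31.2% were called in these settings. Over the alternatives that share ran from 2.93% to 31.2%. Where 10 were tested, CCND2 was included and was not called. CDK6 passed the threshold at -0.349 with no low-count filter and at -0.559 with GC content and length offsets, and CCNE2 at -0.468 with those offsets. Leaving out each library in turn, the log2 fold change ran from -0.487 to -0.197 for CDK6, from -0.543 to -0.166 for CCNE2, from -0.489 to -0.322 for E2F1, from -0.44 to -0.355 for CCNE1 and from -0.083 to 0.335 for RB1, and the CCNE1 share of E-type cyclin reads differed by -2.945 to 2.34 percentage points. Settings chosen after seeing the data were the offsets with the replicate block (CDK6 -0.559, CCNE2 -0.462) and the offsets without control replicate 1 (CDK6 -0.542, CCNE2 -0.517, RB1 -0.072); the cause of these moves was not tested. Over all genes 2110 were called (984 higher, 1126 lower), 3272 with no filter, 4759 with the offsets, 4543 when control replicate 1 and 3702 when control replicate 3 was left out, and 616, 590, 471 and 457 when control replicate 2 or lncSLCC1 siRNA replicate 1, 2 or 3 was; library totals gave 1442 higher and 814 lower, and the offsets 1820 and 2939. Same-numbered libraries correlated in their deviations at 0.094, 0.001 and -0.016, so the numbers were not taken as pairs; the replicate block gave 2052 calls and ended those of CDKN1C, E2F6, PCNA, SLBP, STAT3 and STAT5B among the genes called in the lists. CCND2 was too low to be tested in the main fit, and 3 libraries a group limit every exact test to p = 0.1.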
